A study of Homo sapiens with 4 samples.

Results

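Glycolysis converts glucose to pyruvate, and lactate dehydrogenase turns the pyruvate into lactate, a route that many cancer cells use heavily. AKT kinases are known as promoters of glucose uptake and glycolysis. The transcripts of 5 genes of this pathway were examined in the RIP-seq data, namely HK1 (the hexokinase that phosphorylates glucose at entry), PFKP (the platelet form of phosphofructokinase, which makes the committed step), PGAM1 (phosphoglycerate mutase, which moves the phosphate within phosphoglycerate), ENO1 (enolase, which forms phosphoenolpyruvate) and LDHA (lactate dehydrogenase A). In RIP-seq, a protein is precipitated with an antibody and the RNA that comes down with it is sequenced beside the RNA of the starting lysate. The members were all peaks of the deposited lists that overlap the annotated span of one of the 5 genes, introns included, by at least 1 bp. They came to 32 peaks of the 5646 in both lists, and 4 of the 5 genes held at least 1.

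The samples were 4 libraries of MDA-MB-231, an established breast cancer cell line. The cells had been transfected with a plasmid for Flag-tagged AKT1 carrying the E17K mutation, a gain-of-function change of the kinase, or for Flag-tagged wild-type AKT1 (WT). The plasmid stands on top of the cells' own AKT1, and the labels name no cells without a plasmid. For each plasmid there was 1 anti-Flag immunoprecipitate and 1 input library, all depleted of rRNA. No condition was repeated, so nothing can be tested between the plasmids, and every interval given here covers counting error only. The lists give a control count beside each peak's immunoprecipitate count but do not name the control. The input was assumed here from the sample labels, although the series text also mentions IgG, and all input reads and folds depend on this assumption. Library totals are not given, so depth is known only inside peaks. The E17K list held 4838 peaks with 484463 immunoprecipitate and 248412 input reads, and the WT list held 808 peaks with 51123 and 52223.

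Both strand labels were set against the genes before the members were counted. Among the 3010 E17K peaks that lay in the span of a single gene of known strand, 99.6% (95% Wilson interval 99.3% to 99.7%) carried the label opposite to the gene. In the WT list the share was 99.7% of 627 peaks. A gene on the plus strand was therefore looked for under the minus label. All 32 member peaks carried the label opposite to their gene, and all 32 overlapped the span of no other gene.

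In the E17K list, PFKP had 19 peaks, HK1 had 9, PGAM1 had 3 and LDHA had 1. ENO1 had none. Summed over these peaks, the immunoprecipitate held 1995 reads and the input 988, a fold of 2.02 (95% interval 1.87 to 2.18). The fold is the immunoprecipitate count over the input count, not scaled for library size. Over the whole list the same ratio was 1.95, so the fold of the members was close to that of the list. The AKT1 peaks hold 15.1% of the immunoprecipitate and 19.7% of the input reads of the list. Without them the ratio of the remaining list was 2.06, and the median peak of the list had 2.18. The fold of the members lay below both, although its interval included the 2.06. A median of peaks is not the same measure as a ratio of summed reads, and the median member peak had 2.08. The 32 peaks made up 0.412% of all immunoprecipitate reads in peaks (interval 0.394% to 0.430%) and 0.398% of the input reads (interval 0.374% to 0.423%), and these intervals overlap. At the gene level, none of the 4 genes differed from the remaining peaks of the list after Benjamini-Hochberg adjustment over 1936 genes (two-sided Fisher's exact test on reads, a comparison of the libraries alone). The adjusted p-values were 0.716 for HK1, 0.880 for PFKP, 0.978 for PGAM1 and 0.577 for LDHA. The unadjusted p-values ran from 0.180 for LDHA to 0.853 for PGAM1. In the same test 3% of all genes with a peak were called with a higher share of immunoprecipitate reads and 0.207% with a lower one. Against the median peak of the list, by a two-sided exact binomial test, 0.671% of genes were called higher and 1.91% lower, and the adjusted p-values of the 4 genes lay between 0.320 and 0.977.

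HK1 had 415 immunoprecipitate and 195 input reads in 9 peaks, a fold of 2.13 (interval 1.80 to 2.52). The peaks held between 14 and 186 immunoprecipitate reads (median 28) and between 5 and 90 input reads (median 16). All 9 lay downstream of the 7 start sites that the annotation gives for HK1, and the first was centred 90.0 kb into the span, at 68.3% of its length. The peak at the 3′ end of the span, chr10:69400906-69402080, held most reads, with 186 in the immunoprecipitate and 90 in the input (fold 2.07). The highest fold of any member peak was found next to it, at chr10:69398556-69399025, with 20 and 5 reads (fold 4, at the percentile 92.4 of the list). On so few reads its 95% interval for the immunoprecipitate share ran from 60.9% to 91.1%, which includes the 68.0% of the whole gene.

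PFKP had 742 immunoprecipitate and 368 input reads in 19 peaks, a fold of 2.02 (interval 1.78 to 2.28). Its peaks were centred from 34.0 kb to 69.4 kb after the start of the span, and each was small. The last peak ran 445 bp past the annotated 3′ end. All 19 held between 14 and 85 immunoprecipitate reads (median 41) and between 7 and 39 input reads (median 18). The first 2 peaks lay upstream of the last of the 4 annotated start sites of PFKP, and the other 17 lay downstream of all 4. The folds of 18 peaks ran from 1.67 to 2.88, and the interval of each included the share of the whole gene. The remaining peak, chr10:3121976-3122445, had 23 immunoprecipitate and 25 input reads (fold 0.92), and was the only member peak where the input count exceeded that of the immunoprecipitate. Its share interval, 34.5% to 61.7%, lay below the 66.8% of the gene, although its adjusted p-value over all peaks of the list was 0.384 (Fisher's exact test). In the whole list the immunoprecipitate count was the higher one in 99.3% of peaks, and this peak stood at the percentile 0.310 by fold.

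PGAM1 had 773 immunoprecipitate and 401 input reads in only 3 peaks, a fold of 1.93 (interval 1.71 to 2.17). The peak at chr10:97432176-97433820, which runs 376 bp past the annotated 3′ end, held 583 and 315 of these reads (fold 1.85), more than any other member peak. The peak at chr10:97430296-97431470 had 175 and 79 reads (fold 2.22). Between them, chr10:97431706-97431940 had 15 and 7 reads (fold 2.14). The 3 share intervals overlapped. The 3′ peak decided the level of the gene, and the other 2 peaks alone gave a fold of 2.21.

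LDHA had a single peak, chr11:18404491-18404900, of 410 bp. Its reads were 65 in the immunoprecipitate and 24 in the input, a fold of 2.71 (interval 1.70 to 4.31), which was the highest of the 4 genes and at the percentile 81.5 of all genes with a peak. The interval also held the folds of HK1, PFKP and PGAM1, and the ratio of the list. The peak covered 2.96% of the span and was centred at 73.1% of it. The summed peak widths came to 42.1% of the span length for PGAM1, 13.2% for PFKP and 3.56% for HK1. They include the bases past the annotated 3′ end, 376 bp for PGAM1, 445 bp for PFKP and 198 bp for HK1, so less of each span was covered. These numbers of peaks and shares are not comparable with those of LDHA, because the smallest peak listed under the minus label of chromosome 11 had 32 immunoprecipitate reads and that of chromosome 10 had 11.

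**Figure D1:**
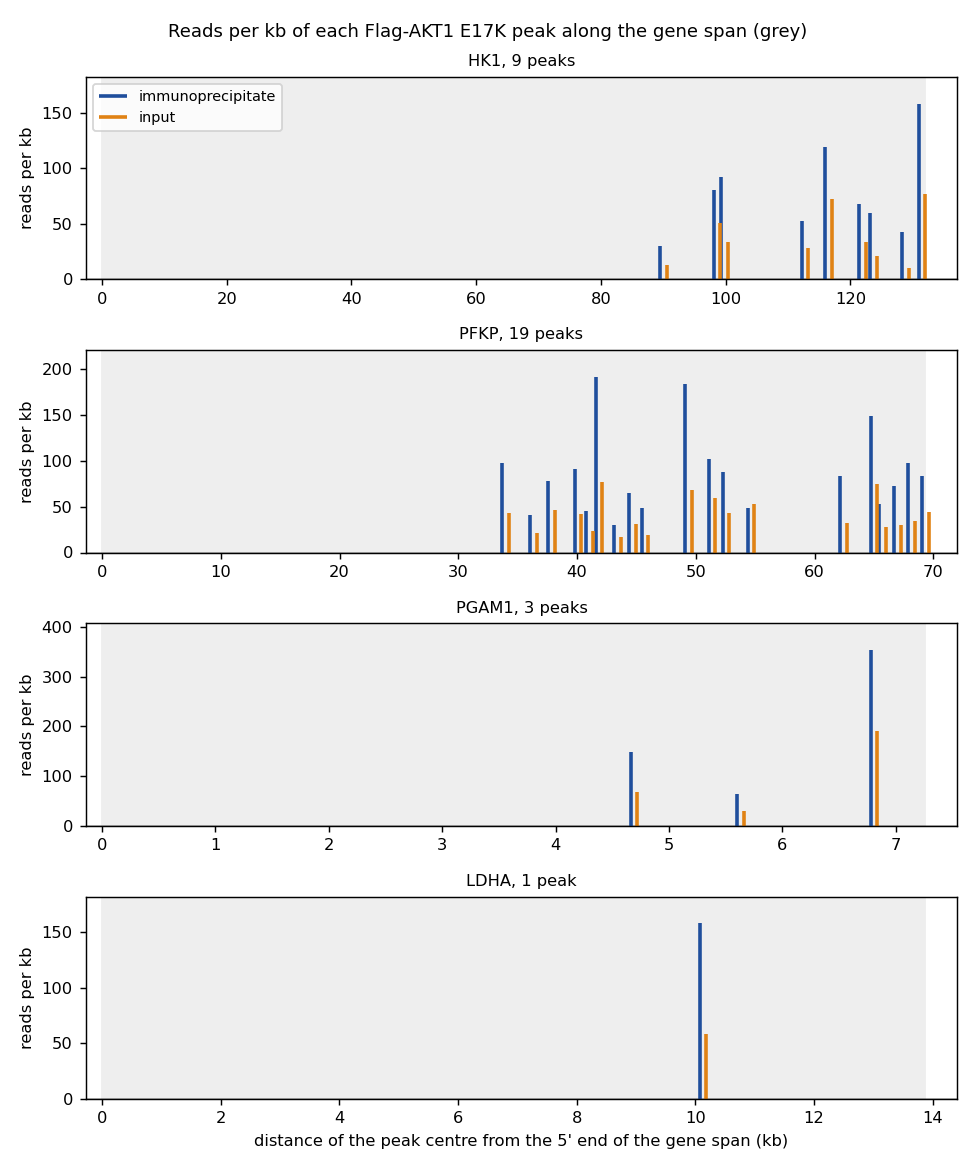
Reads per kb of each E17K peak (y axis, linear and scaled for each gene) against the distance of the peak centre from the 5′ end of the gene span in kb (x axis), with the span in grey, the immunoprecipitate in blue and the input in orange, moved slightly apart for legibility. All 9 HK1 peaks and all but the first of the 19 PFKP peaks lie beyond the middle of the span, and the tallest PGAM1 peak lies at its 3′ end.

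Peaks beyond the middle of the span were common in the whole list. Of the 32 member peaks, 31 were centred there, with quartiles at 64.6% and 93.8% of the length. Of 2992 E17K peaks in the span of a single coding gene, 74.7% lay beyond the middle, with quartiles at 49.6% and 92.2%. No member peak overlapped a start site window of its own gene (250 bases before to 50 after), and 0.661% of all E17K peaks overlapped any such window.

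Of the 32 member peaks, 31 had a share interval that included the share of their gene. The gene share is summed from these same peaks, so this count does not test whether the peaks of a gene are alike. For LDHA, with 1 peak, the 2 shares are the same value. The lowest fold of the member peaks was 0.92, the median 2.08 and the highest 4, while the peaks of the list had a median fold of 2.18 with quartiles of 1.83 and 2.75. Of the 32 peaks, 13 lay above the median of the list. None passed the test over all 4838 peaks, in which 0.0827% of peaks were called higher and 0.186% lower. Peaks with many immunoprecipitate reads also had many input reads. On a log2 scale their Pearson correlation was 0.959 over the 32 peaks, which share 2 libraries and differ in width, compared to 0.944 over the 4829 peaks of the list with any input read. The number of reads also went along with the fold in the whole list. Peaks of 11 to 19 immunoprecipitate reads had a median fold of 2.40, and those of 300 or more had 1.99. The large PGAM1 peak, at 1.85, belongs to the latter class, whose lower quartile was 1.85. The smaller peaks of HK1 and PFKP fall in the classes of lower read number, where quartiles were wider.

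Between the genes, 6 ratios of folds were calculated, without a test. The largest was that of LDHA over PGAM1, at 1.40 (interval 0.866 to 2.28), and the smallest that of PGAM1 over HK1, at 0.906 (interval 0.735 to 1.12). Every one of the 6 intervals included equal folds. That of PGAM1 over PFKP was the narrowest, from 0.804 to 1.14. The intervals of the ratios with LDHA were wide at the depth of its peak, and the smallest difference that could be detected was not calculated.

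**Figure D2:**
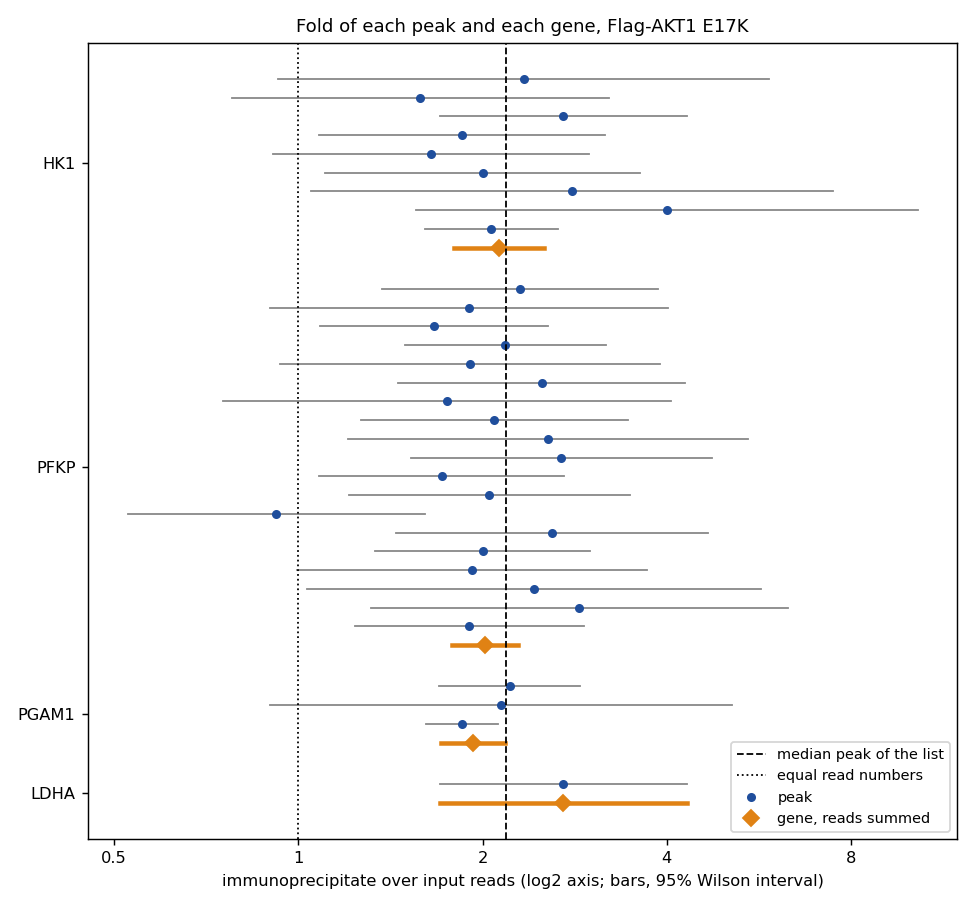
Immunoprecipitate over input reads (x axis, log2 scale) of each member peak (blue points, in the order of their position) and of each gene with its reads summed (orange diamonds), with 95% Wilson intervals as bars, the median peak of the E17K list as a dashed line and equal read numbers as a dotted line. The 4 genes lie between 1.93 and 2.71, and 1 PFKP peak at 0.92 lies left of the dotted line.

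By level per length, PGAM1 lay above the other genes in both libraries. It had 253 immunoprecipitate reads per kb of peak (95% exact Poisson interval 236 to 272) and 131 input reads per kb (119 to 145). LDHA followed with 159 (122 to 202) in the immunoprecipitate and 58.5 (37.5 to 87.1) in the input. HK1 had 88.3 (80.0 to 97.2) and 41.5 (35.9 to 47.7), and PFKP had 81.0 (75.2 to 87.0) and 40.2 (36.2 to 44.5). HK1 and PFKP did not differ beyond their intervals in either library, and in the input neither differed from LDHA. PGAM1 over PFKP came to 3.13 (2.83 to 3.46) in immunoprecipitate reads per kb. The first place of PGAM1 rested on its 3′ peak, at 354 reads per kb. Its other 2 peaks together had 135, below the 159 of LDHA. By this level PGAM1 was at the percentile 83.6 of all 1936 genes with a peak, LDHA at 64.6, HK1 at 37.9 and PFKP at 33.6, where the median gene had 113. By fold they were at the percentiles 28.4, 81.5, 49.2 and 38.1. The widths were set by the lists and not by exons. All peaks under the minus label of chromosome 10 had widths that were multiples of 235 bp, and those of chromosome 11 under the same label were multiples of 205 bp, so the resolution differed between LDHA and the other genes. The lowest listed values differed as well, with 32 reads and 57.5 per kb on the strand of LDHA against 11 reads and 27.7 per kb on that of the other 3 genes. With only peaks at or above both values of the LDHA strand, a setting added after seeing the values, HK1 kept 3 peaks with 120 immunoprecipitate reads per kb (107 to 135), whose interval overlapped that of LDHA. PFKP kept 11 peaks with 98.2 (90.4 to 107), and PGAM1 kept 2 with 269 (250 to 289). Percentiles over all genes mix such strands in the same way.

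Compared with their own chromosome strand, the chromosome 10 genes stood higher by level. Under the minus label of chromosome 10 there were 125 coding genes of the plus strand with a peak, and their median was 56.4 immunoprecipitate reads per kb. PGAM1 ranked 5, HK1 27 and PFKP 31 by this level. By the number of peaks PFKP ranked 2 and HK1 9, where the median gene had 2. The number of peaks was not scaled for the span, which is 131883 bp for HK1, 69258 bp for PFKP and 7254 bp for PGAM1. By fold the 3 genes lay at the percentiles 16.8 (PGAM1), 24.0 (PFKP) and 32.8 (HK1) of that strand, whose median gene had 2.29. Against the remaining reads of the same strand, with ratios near 2.15, PFKP and HK1 fell below the comparison ratio where they had been above that of the whole list. The adjusted p-values of this comparison were 0.476 for PGAM1, 0.788 for PFKP and 1 for HK1 (Fisher's exact test). LDHA ranked 12 of 105 coding genes by level on its strand, with a fold at the percentile 85.7.

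**Figure D3:**
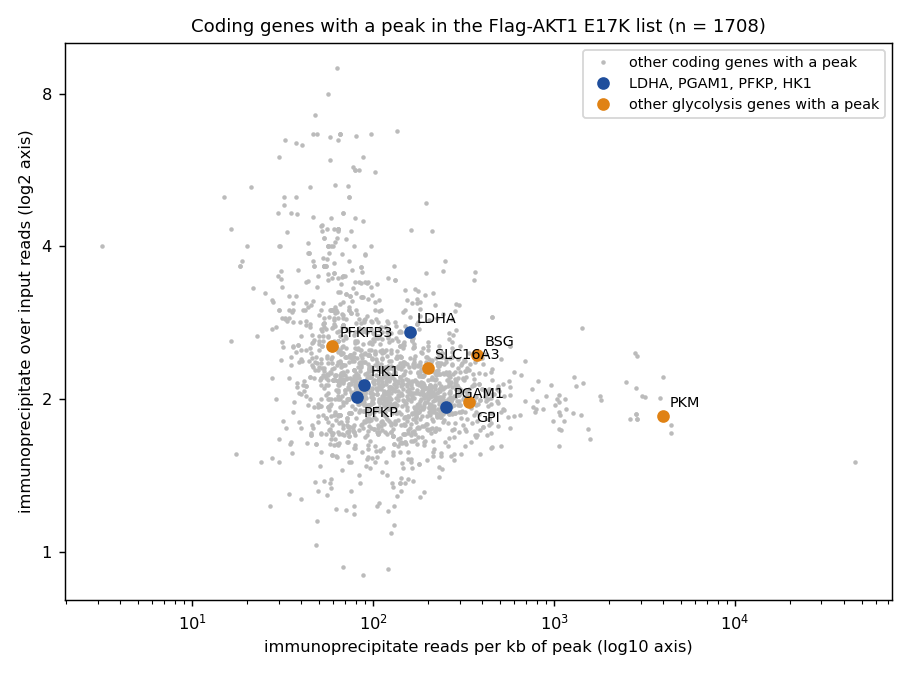
Immunoprecipitate reads per kb of peak (x axis, log10 scale) against the fold over the input (y axis, log2 scale) for the 1708 coding genes with an E17K peak (grey), with LDHA, PGAM1, PFKP and HK1 in blue and other glycolysis genes with a peak in orange. The blue points lie within the grey cloud, at 81.0 to 253 reads per kb and folds of 1.93 to 2.71.

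The coding genes nearest to the members in both measures were found by the Euclidean distance of log2 reads per kb and log2 fold among 1704 coding genes, over the 2 libraries of the E17K pair. PFKP was nearest to GTPBP4, also on chromosome 10, with 80.6 reads per kb and a fold of 2.03 in 13 peaks. HK1 was nearest to RAB6A (88.3 and 2.14), PGAM1 to PUM3 (256 and 1.93) and LDHA to TMEM258 (164 and 2.66).

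ENO1, usually an abundant transcript, had no peak in either list. It lies on the minus strand of chromosome 1, so its peaks would carry the plus label. The E17K list has 34 peaks there, and 152 under the minus label. The nearest peak of the plus label was at chr1:11054611-11055030, 2176 kb away, in the span of SRM (spermidine synthase), with 113 immunoprecipitate and 57 input reads. The nearest of the minus label was 883 kb away, at chr1:7977601-7977800 in PARK7, with 53 and 22 reads. These neighbours were named after their values were seen. The lists held peaks of very different size on different strands. Under the plus label of chromosome 1 the smallest listed peak had 88 immunoprecipitate reads and the lowest level was 165 per kb, while under the minus label of chromosome 10 peaks of 11 reads and 27.7 per kb were listed. Only 1 of the 32 member peaks, that at the 3′ end of PGAM1, reached both lowest values seen on the strand of ENO1, and 27 reached neither. Peaks were found at 4.27% of coding genes of the minus strand of chromosome 1, compared to 37.5% for the plus strand of chromosome 10 and 21.3% for the plus strand of chromosome 11. For ENO1 the list therefore gives no read count, and its absence was not a measurement of a low level.

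Copies of these genes can share reads. The annotation names 23 pseudogenes of the members, 13 of PGAM1, 6 of LDHA and 4 of ENO1, and no peak of either list overlapped any of them. How reads with several matches were placed is not given in the sources used here, so the counts of PGAM1 and LDHA, and the missing peak of ENO1, carry that uncertainty.

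The rest of the pathway was read from a list of 29 enzyme genes from hexokinase to lactate dehydrogenase, the 5 members included. Among them, 19 lie on a chromosome strand with at least 1 E17K peak under the opposite label and 10 on a strand with none. The strands without any peak hold GAPDH, TPI1, ALDOA, PGK1, HK2, PFKM, ENO2 and LDHB, so for these enzymes the list gives no measurement. Of the 19, 6 held a peak, the 4 members and the enzymes GPI and PKM. The members were chosen with earlier results known, and without them 2 of 14 (14.3%) held a peak. Peaks were found at 7.8% of all coding genes of known strand, and at 12.7% of those on strands with a peak under the opposite label, expressed in these cells or not, which is near the share of the 14 genes. GPI (glucose phosphate isomerase) had 539 and 273 reads in 2 peaks, a fold of 1.97 (interval 1.71 to 2.28) at 337 immunoprecipitate reads per kb. PKM (pyruvate kinase) had 5011 and 2709 reads in 3 peaks, a fold of 1.85 (interval 1.77 to 1.94) at 3977 reads per kb. The lowest levels listed on their strands were 273 per kb for GPI and 2595 per kb for PKM, so these levels cannot be set against those of the members. The remaining 13 of the 19 held none, among them HKDC1, which lies on the same strand as HK1, LDHC and LDHAL6A, which lie on the strand of LDHA, and PFKL. The median fold of the 6 genes was 1.995, compared to 2.13 for all genes with a peak. This comparison includes the 4 members and was not matched for read number, which goes along with the fold in the list.

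Among 17 transporters and regulators of the pathway, 9 lie on a strand with peaks, 5 on a strand without any, and 3 had no known strand. Of the 9, 3 (33.3%) held a peak, compared to 12.7% of all coding genes on strands with peaks. This list was also chosen with earlier results known, and the difference in share was not tested. PFKFB3, which makes the activator of phosphofructokinase, had 153 immunoprecipitate and 60 input reads (fold 2.55, interval 1.89 to 3.43). BSG (basigin, the partner of lactate transporters) had 225 and 92 (fold 2.45, interval 1.92 to 3.12), and the lactate exporter SLC16A3 had 120 and 52 (fold 2.31, interval 1.67 to 3.19). None of these 5 further genes passed the gene-level test, with adjusted p-values from 0.252 for PKM to 0.993 for GPI (Fisher's exact test).

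**Figure D4:**
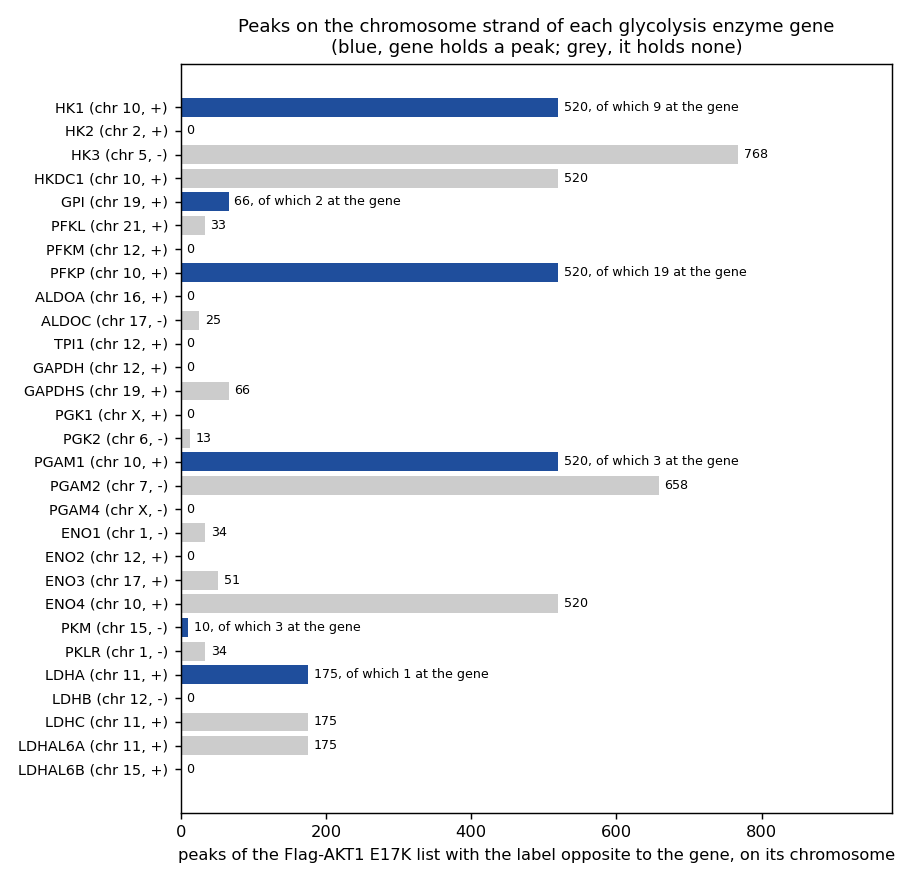
Number of E17K peaks under the label opposite to the gene on its chromosome (x axis) for the 29 enzyme genes of known strand (y axis, with chromosome and gene strand), in blue where the gene itself holds a peak and in grey where it holds none. ENO1 lies on a strand with 34 peaks, LDHA on one with 175, and HK1, PFKP and PGAM1 on one with 520, while 10 genes lie on strands with 0.

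The WT list had no peak at any of the 5 genes, nor at any of the other 41 genes of the pathway lists. Few coding genes held a WT peak at all, 274 compared to 1708 in the E17K list. Only 13 of the 29 enzyme genes and 5 of the 17 transporters and regulators lie on a strand with a WT peak under the opposite label. For the remaining genes the WT list gives no measurement. The WT list holds 1 peak under the minus label of chromosome 10, with 11 immunoprecipitate and 26 input reads, and 0 under the minus label of chromosome 11 or the plus label of chromosome 1. Those are the labels under which the members would appear. The WT list thus gives no reads of these transcripts, and E17K and WT were not compared for any of them.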

How the data were processed

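RIP-seq was performed by the authors on 4 libraries, and 1 peak list per plasmid was deposited. The deposited counts are whole reads per peak without normalization, for the immunoprecipitate and a control. The authors also give an adjusted p-value of each peak, used here only as a stricter threshold. The submitters' processing notes name Bowtie2 2.2.8 and hg18 without a role. The peak caller and filters are not given in the sources used here.

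Peaks were assigned to genes by an overlap of at least 1 bp with the RefSeq span (GRCh38.p14). The lists name no build, so printed coordinates are those of the lists. Gene strands and start sites came from the RefSeq promoter table of GRCh38.p14. Input counts under 3 were set to 3 in folds. Each gene's summed reads were compared with all remaining peaks (Fisher's exact test, two-sided) with Benjamini-Hochberg adjustment over 1936 genes, at a threshold of 0.05. Reads shared by overlapping genes were counted for each. Tested on simulated data for the E17K pair, the test recovered 154 of 200 genes changed by a factor of 2 and made 13 false calls among 1668 unchanged genes. All 61 changed genes with at least 300 reads in both libraries together were recovered, so every miss had fewer reads, as LDHA has. The simulated counts were binomial, without further spread between peaks.

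The members and gene lists were chosen with earlier results of these data known. Genes named are the members, pathway genes with a peak, and the nearest coding gene of each member. Other genes were named after their values were seen. Peak sequences were not used here. A few genes of the pathway are not reported here. Python 3.11.15, numpy 2.4.6, pandas 2.3.3, scipy 1.17.1 and matplotlib 3.10.9 were used.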

Additional observations from a re-analysis of the deposited data

How the results depend on the processing

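No paired analysis was possible because each condition has 1 library. Of 80 values recalculated under alternatives, 61 were counted as unchanged. For the fold of a gene this meant the same direction and side of the threshold. Reads per kb had to stay within the counting interval, and the other values within 1.5 times. No member gene passed the threshold under any alternative, with adjusted p-values from 0.320 to 1. The small differences from the comparison ratio changed sign in 6 cases. PFKP, at 2.02, was above the ratio of the remaining list but below that of the list without the AKT1 peaks (2.06), of the same chromosome strand (2.15) and of the median peak (2.18, exact binomial test). HK1, at 2.13, was below the ratios of the same chromosome strand and of the median peak. PGAM1 without its peak of most reads, an alternative chosen after seeing the data, had a fold of 2.21, above the ratio of the remaining list (1.95) and not below it. With peaks of at least 4-fold only, LDHA, PGAM1 and PFKP kept 0 peaks and HK1 kept 1, since nearly all member folds are lower. With the authors' adjusted p-value at most 0.001, HK1 had 101 immunoprecipitate reads per kb in place of 88.3, because 2 of its peaks were removed. Under alternatives chosen after seeing the data, levels also moved. Without the peak of most reads PGAM1 had 135 and HK1 65.0 reads per kb, and with only peaks that reach the lowest values of the LDHA strand HK1 had 120 and PFKP 98.2. Without the AKT1 peaks, 28 genes had more and 13 had fewer immunoprecipitate reads, in place of 58 and 4, and against the median fold the numbers were 13 and 37. The AKT1 peaks hold 15.1% of the immunoprecipitate and 19.7% of the input reads of the list. Depth limits LDHA most, with 65 and 24 reads.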
